A study of Mus musculus with 2 samples.

Results

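The cells described here were selected by the mast cell protease gene Cpa3 in 2 Xenium In Situ sections, a method that decodes single RNA molecules in tissue and assigns them to segmented cells. A cell entered the set, and is called a Cpa3-gated cell, when it held 20 or more gene counts in all and 3 or more counts of Cpa3. The rule found 83 of 191692 cells in the EKP section and 924 of 248060 in the RKP section, 1007 of 439752 cells in all. EKP and RKP are cultured tumour cell lines whose names the labels do not spell out, in a series on a mutant form of the small GTPase RHOA, and the labels used here do not state which line carries that mutation. Each line was mixed with Matrigel and grafted subcutaneously into both flanks of C57BL/6 mice, 5 weeks old, and the tumours, labelled diffuse gastric cancer, were collected at similar final volumes. Both tumours lay in 1 paraffin block on 1 slide, with 1 section per line, so the differences below have no replicate check, no test between sections was made, and 95% intervals cover counting error only.

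Mast cells are tissue-resident immune cells that keep proteases, histamine and other mediators in granules and release them when triggered. Cpa3 encodes carboxypeptidase A3, a granule protease of mast cells that basophils also transcribe. Cyp11a1 encodes the mitochondrial enzyme that turns cholesterol into pregnenolone, the entry step of steroid synthesis, and has been described in mast cells. Alox5ap encodes the protein that presents arachidonic acid for leukotriene synthesis, another mediator class of these cells.

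The upstream sequences of Cpa3 and Cyp11a1 are shown because the results turn on the pair being counted in the same cells. In the mouse assembly GRCm38.p6, Cpa3 (ENSMUSG00000001865) lies on the minus strand of chromosome 3 from 20215616 to 20242209, and Cyp11a1 (ENSMUSG00000032323) on the plus strand of chromosome 9 from 57998024 to 58027031. The 200 bases before each annotated start, from RefSeq, read 5′ to 3′ on the gene's strand as follows, with matches to GATAA (or its reverse complement TTATC) and to the palindrome CAGCTG in capitals; the 2 motifs do not overlap here.
Cpa3, chr3:20242210-20242409, minus strand: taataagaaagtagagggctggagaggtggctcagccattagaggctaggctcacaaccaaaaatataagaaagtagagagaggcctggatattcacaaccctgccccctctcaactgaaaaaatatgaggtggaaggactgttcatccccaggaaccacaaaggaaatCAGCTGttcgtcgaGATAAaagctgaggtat
Cyp11a1, chr9:57997824-57998023, plus strand: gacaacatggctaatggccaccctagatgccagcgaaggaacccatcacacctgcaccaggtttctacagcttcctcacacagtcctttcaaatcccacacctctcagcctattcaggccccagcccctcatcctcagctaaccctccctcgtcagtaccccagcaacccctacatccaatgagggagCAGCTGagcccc
CAGCTG begins 31 bases before the Cpa3 start and 12 bases before the Cyp11a1 start, and GATAA begins 17 bases before the Cpa3 start and is not in the Cyp11a1 window. Of 32851 RefSeq promoter windows of 200 bases, 10.9% held CAGCTG and 18.1% held GATAA on either strand, so both are common, and a match is a description of the letters and not a site.

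The label mast cell could be checked against few genes. Of 25 mast cell genes listed, the gene panel carries Cpa3, Cyp11a1 and Mitf, and not Kit, the high-affinity IgE receptor or the tryptases and chymases. None of 5 listed basophil genes is on the panel, so basophils and mast cells cannot be told apart here. Besides Cpa3, the remaining 2 mast cell genes summed to 17265 counts per 1000000 gene counts (CPM, Cpa3 left out of the totals) in the EKP Cpa3-gated cells against 894 in all other cells, 19.3-fold higher. In RKP they summed to 13155 against 834 CPM, 15.8-fold higher. At least 1 of the 2 genes was counted in 60.2% of the EKP and 71.2% of the RKP Cpa3-gated cells, against 12.1% and 12.3% of other cells. Cyp11a1, chosen with its level known, gave 84 of the 100 summed counts in EKP and 1648 of 1953 in RKP. These sums are thus no check of the label. Mitf was counted in 14.5% of EKP and 24.9% of RKP gated cells. Among other cells with 3 or more counts of Mrc1 or Cd68, markers of macrophages, the shares were 21.6% and 24.2%, at greater depth. Its level there was 1459 and 1463 CPM, against 2762 and 2054 in the gated cells. The name rests on 3 genes, 1 of which chose the cells.

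Cpa3-gated cells made up 0.0433% of EKP cells (Clopper-Pearson 95% interval 0.0345 to 0.0537%) and 0.372% of RKP cells (0.349 to 0.397%). The RKP share was 8.60 times the EKP share (95% interval 6.87 to 10.9). The gate took 15.3% of the 3605 Cpa3 counts of the EKP section and 63.9% of the 10374 of the RKP section, so most Cpa3 counts in EKP lay outside it. Each gated cell held a median of 4 Cpa3 counts in EKP, with a maximum of 29, and a median of 5 in RKP, with a maximum of 33. The ratio depended on the gate: in cells thinned to 40 counts and taken at 1 or more Cpa3 counts, it was 1.82. Just inside the threshold, at 3 counts, were 31 EKP and 241 RKP cells, and just outside it, at 2 counts, were 123 and 521.

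The sections differed in depth, and so did the gated cells. The files held 31597828 gene counts for EKP and 44294494 for RKP, and 26.6% of EKP cells but 3.00% of RKP cells fell below 20 counts. Without Cpa3, the median gated cell held 53 counts in EKP (quartiles 27.5 to 97.5) and 142 in RKP (87 to 213), against 139 and 158 in the other cells. The sums compared below rest on 5792 counts from the EKP and 148459 from the RKP Cpa3-gated cells, which makes the EKP values far less precise. Negative control probes gave 2 counts in the EKP and 3 in the RKP gated cells. The sections shared 19 cell names, and none of these named a gated cell in both.

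**Figure D1:**
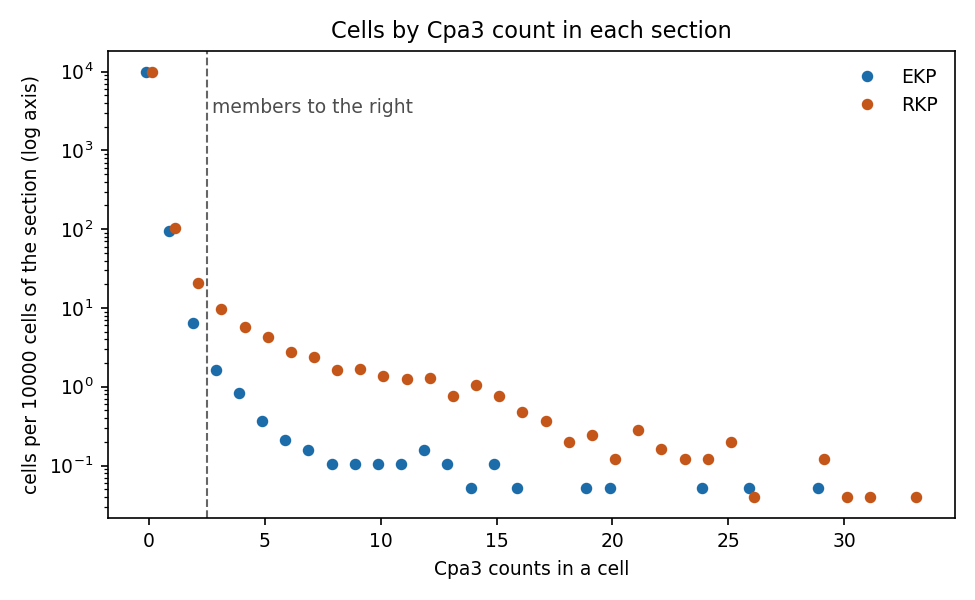
Cells of each section by the number of Cpa3 counts they held (horizontal axis), per 10000 cells with 20 or more gene counts (vertical log axis), for EKP in blue and RKP in orange. The sections lie close at 1 count and part from 2 counts on, where RKP has more cells at nearly every count; the dashed line marks the limit of 3 counts, right of which lie the 83 EKP and 924 RKP cells described here.

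Cyp11a1 was the gene that stood furthest above the other cells among the genes kept in both sections. It summed to 84 counts, 14503 CPM, in EKP Cpa3-gated cells against 151 CPM in other cells, 96.3-fold (95% interval 76.7 to 119) higher. In RKP it summed to 1648 counts, 11101 CPM, against 94.4 CPM, 118-fold (95% interval 111 to 125) higher. The level in the gated cells was thus of like size in both sections, with an RKP over EKP ratio of 0.765 (95% interval 0.615 to 0.965). The gene was chosen for description with its level known, so these values are a description. Over the other settings tried, the ratio ranged from 38.1 to 218 in EKP and from 79.1 to 164 in RKP.

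By cell, 51.8% of EKP and 63.1% of RKP Cpa3-gated cells held a Cyp11a1 count, against 2.00% and 1.14% of other cells. Cells with 5 or more counts of the epithelial gene Epcam, which are deeper than the gated cells, serve as a reference: 6.07% of them held Cyp11a1 in EKP at a median of 261 counts, and 1.54% in RKP at 241. Cells with 3 or more counts of the endothelial gene Pecam1 held it in 0.420% and 0.745%. Both shares in the gated cells lay far above these references. With cells thinned at random to a depth of 40 counts, Cyp11a1 was found in 19 of 53 EKP gated cells (35.8%, 95% interval 23.1 to 50.2%; 30 shallower cells left out) and in 302 of 879 RKP gated cells (34.4%, 31.2 to 37.6%; 45 left out). The share in 20000 thinned other cells was 0.465% in EKP and 0.420% in RKP, so at equal depth the sections lay close together.

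Detection followed the Cpa3 count in both sections. In RKP, Cyp11a1 was found in 0.997% of cells without Cpa3, 9.43% at 1 count, 28.2% at 2, 37.8% at 3, 73.0% at 6 to 10 and in all 29 cells with 21 or more. In EKP the shares were 1.99%, 3.37%, 8.94% and 29.0% at 0 to 3 counts, and 61.5% at 6 to 10, a bin of 13 cells. There was no step at the limit of 3 in RKP, where the share at 2 counts was already many times that without Cpa3, while in EKP the share at 2 counts was below that of cells at 3. Levels followed the same order: from 3 to 5, over 6 to 10, to 11 or more Cpa3 counts, Cyp11a1 stood at 6930, 24194 and 46263 CPM in EKP and at 5050, 11579 and 27861 CPM in RKP. Median depth without Cpa3 did not climb along these bins (57.5, 43 and 47.5 counts in EKP; 152, 119 and 133 in RKP).

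**Figure D2:**
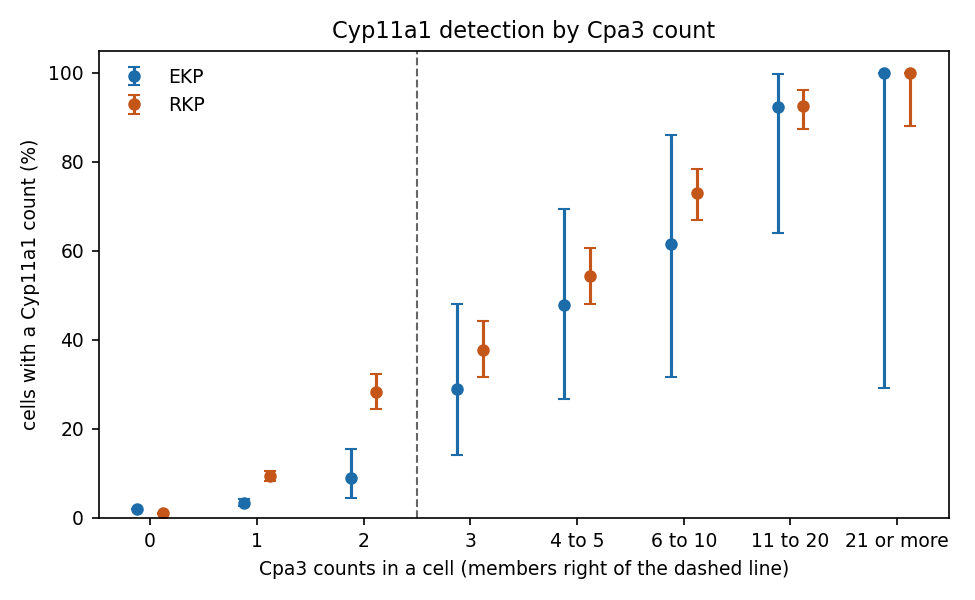
Share of cells with at least 1 Cyp11a1 count (vertical axis, percent) by the Cpa3 count of the cell (horizontal axis), for EKP in blue and RKP in orange, with Clopper-Pearson 95% intervals as bars. Both sections climb from near 0 without Cpa3 to 92.3% and 92.6% at 11 to 20 Cpa3 counts, and RKP lies above EKP at 1 and 2 counts.

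The converse differed between the sections. Of all Cyp11a1 counts in cells with 20 or more counts, the Cpa3-gated cells held 1.77% of 4740 in EKP and 28.4% of 5806 in RKP. Among cells with 3 or more Cyp11a1 counts, 11 of 169 in EKP and 227 of 536 in RKP passed the Cpa3 gate, and 155 and 235 had no Cpa3 count at all. In EKP the Epcam reference cells stood at 286 CPM of Cyp11a1, above the mean of all other cells (151 CPM), whereas in RKP they stood at 68.9 CPM, below it (94.4 CPM). Cyp11a1 thus marked the gated cells by level in both sections, but most of its counts lay outside them, above all in EKP.

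Across the panel, a gene was kept for comparison when it had 20 or more counts in the gated cells, or would have had them at its rate in the other cells, which left 103 genes in EKP and 293 in RKP. In EKP, 31 of the 103 (30.1%) stood 2-fold or more above the other cells and 25 (24.3%) at 0.5-fold or less; in RKP, 34 of 293 (11.6%) stood above and 60 (20.5%) below. The 2-fold limit sorts genes by size and tests nothing, and a gene kept only through the cells where it is high had to differ. Among the 4 genes past 2-fold in both sections, named below, this held for Cyp11a1 in both and for Rac2 in EKP. In counts per cell, where the shallower EKP gated cells shift the median log2 ratio of all kept genes from -0.04 to -1.25, the EKP split was 9 above and 56 below. All 103 genes kept in EKP were also kept in RKP. Besides Cyp11a1, the genes past 2-fold in both sections were Alox5ap, Ctla2a and Rac2, 4 genes in all, which is 4 of 31 in EKP and 4 of the 6 among these 103 in RKP.

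The leukotriene gene Alox5ap stood at 11740 CPM in EKP gated cells against 3528 in others, 3.33-fold (95% interval 2.58 to 4.22) higher, and at 14327 against 5062 CPM in RKP, 2.83-fold (95% interval 2.71 to 2.95) higher. Ctla2a, which encodes an inhibitor of cysteine proteases, stood at 14675 against 6038 CPM in EKP, 2.43-fold (95% interval 1.94 to 3.01), and at 17022 against 3394 CPM in RKP, 5.02-fold (95% interval 4.82 to 5.22). Rac2, a signalling protein of blood cells, stood at 8287 against 2964 CPM in EKP and 11424 against 4675 in RKP, 2.80-fold and 2.44-fold higher. In the gated cells these 3 levels lay close in the 2 sections, with RKP over EKP ratios of 1.22, 1.16 and 1.38. Laptm5, a lysosomal membrane protein of blood cells, was next, 2.16-fold higher in EKP and 1.98-fold in RKP. These ratios are over other cells pooled, and single reference groups held as much or more. Pecam1 cells exceeded the gated cells in Ctla2a (EKP 33896.5, RKP 26598.9 CPM). Cells with 3 or more Mrc1 or Cd68 counts did so in Laptm5 (27694.5, 28499.6), and those with 2 or more Cd3e counts in Rac2 (21615, 22142). For Alox5ap, EKP cells with 3 or more Csf3r counts reached 14662 CPM. The RKP gated cells lay above every reference group in Alox5ap, the nearest being at 13241. In RKP, Alox5ap climbed with the Cpa3 count, from 7935 CPM at 3 to 5 counts to 30708 at 11 or more, as did Laptm5 (14158 to 42786) and Ctla2a (11740 to 31395). In EKP, where the highest bin has 16 cells, Alox5ap stood at 12474 and 9490 CPM at the same counts. Over the same step, Laptm5 went from 17094 to 34401 CPM in EKP, Ctla2a from 13167 to 23725 and Rac2 from 5082 to 23725.

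Other listed genes of mast cell function were few. Mitf, a transcription factor of mast cells and pigment cells, had 16 counts in EKP gated cells, too few to be kept (2762 against 743 CPM, in 14.5% of cells), and was 2.78-fold (95% interval 2.47 to 3.11) higher in RKP (2054 against 739.7 CPM, in 24.9% of cells). Ltc4s, the enzyme that makes leukotriene C4 in mast cells, had 1 count in EKP and stood at 141 against 245 CPM in RKP. Of the 7 eicosanoid genes listed, Alox5ap and Ltc4s are on the panel, and of the 10 steroid genes only Cyp11a1 is, so the steps before and after it were not measured. The 3 type 2 genes on the panel were Areg, Retnla and Arg1. Areg stood at 6924 against 3748 CPM in RKP and had 1 count in EKP. Summed, the 3 genes stood at 21103.5 against 21279.6 CPM in RKP, with none past 2-fold, and at 3626 against 12202 CPM in EKP.

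**Figure D3:**
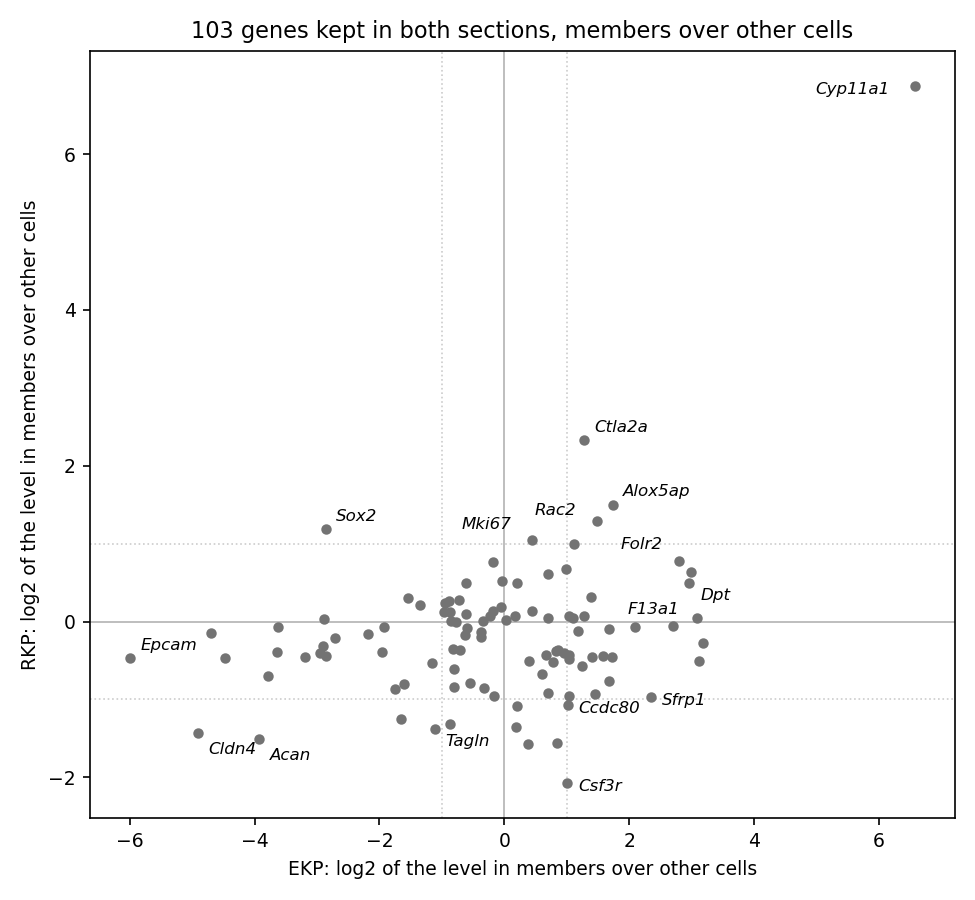
The 103 genes kept in both sections, each by the log2 ratio of its level in Cpa3-gated cells over other cells in EKP (horizontal axis) and in RKP (vertical axis); dotted lines mark 2-fold either way. Cyp11a1 lies alone at the upper right, Ctla2a, Alox5ap and Rac2 lie past 2-fold on both axes, and most other genes spread along the EKP axis within 2-fold in RKP.

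Apart from these genes, the EKP Cpa3-gated cells stood higher in several genes of fibroblasts and of tissue macrophages. Dpt, a matrix protein of dermal fibroblasts, stood at 11395 against 1472 CPM, 7.74-fold (95% interval 5.99 to 9.85) higher. F13a1, a clotting factor subunit made by tissue macrophages, stood at 29696 against 4538 CPM, 6.54-fold (95% interval 5.60 to 7.60) higher, and was counted in 60.2% of the cells. The adhesion gene Chl1 (9.10-fold), the lectin gene Cd209a (8.74-fold), the protease inhibitor Serpina3n (8.54-fold), the folate receptor Folr2 (6.98-fold), the Wnt antagonist Sfrp1 (5.13-fold) and the mannose receptor Mrc1 (4.28-fold) were higher too. Of these, Dpt, Chl1, Cd209a, Serpina3n and Folr2 were kept only through their counts in the gated cells. Not all macrophage genes were: Arg1, which encodes arginase 1, had 7 counts, 1209 against 9040 CPM, 7.48-fold lower, and Mpeg1 stood at 6561 against 7366 CPM. Summed, the 6 fibroblast genes on the panel stood at 149689 against 64453 CPM and the 11 macrophage genes at 63363 against 32637. The part of fibroblasts and macrophages in these values was not tested. When gated and other cells were limited to those with no Epcam count, 10 of 91 kept genes stood 2-fold or more higher, in place of 31 of 103.

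Epithelial transcripts were scarce in the same EKP cells. Epcam had 2 counts, 345 against 22141 CPM, 64.1-fold lower, and 81 of the 83 cells held none. Krt8 stood at 3453 against 25456 CPM, and the 6 epithelial genes on the panel summed to 6906 against 89819 CPM. Of the 8 T and NK cell genes on the panel, 7 were at 0 counts in the 83 cells, and Lag3 had 5.

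In RKP the leading genes after Cyp11a1 were others. Muc13, a transmembrane mucin of epithelial surfaces, had 226 counts in the Cpa3-gated cells, 1522 against 14.4 CPM, 106-fold (95% interval 90.3 to 123) higher, and was counted in 15.4% of them against 0.220% of other cells. The gated cells, 0.372% of RKP cells, held 26.2% of its Muc13 counts. Muc13 was kept in RKP only through its counts in the gated cells, so it had to stand higher there. In EKP, Muc13 had 4 counts in the gated cells, too few to be kept, 691 against 39.8 CPM, and was counted in 4.82% of them against 0.620% of other cells. Gzmb, which encodes granzyme B, a serine protease best known from cytotoxic lymphocytes and also stored by mast cells, had 2394 counts, 16126 against 306 CPM, 52.6-fold (95% interval 50.4 to 55.0) higher. Scin, which encodes the actin-severing protein scinderin, stood at 4068 against 428 CPM, 9.51-fold (95% interval 8.75 to 10.3) higher. The 3 genes were picked out for this paragraph after their values were seen, and Muc13 and Scin belong to no list used here.

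The 3 genes also followed the Cpa3 count. From 3 to 5, over 6 to 10, to 11 or more Cpa3 counts, Gzmb stood at 7372, 18543 and 38257 CPM, Muc13 at 634, 1314 and 4323, and Scin at 1855, 4363 and 10053. Epcam and the fibroblast gene Lum did not climb with them: over the same bins Epcam stood at 18837, 16725 and 16572 CPM, and Lum at 3985, 3524 and 2299. The endothelial gene Pecam1 did climb, from 1101 over 1762 to 3911 CPM, as did the proliferation gene Mki67, from 6522 over 7747 to 10088. The T cell gene Cd3e stood at 203, 196 and 377 CPM, below the 467 CPM of the other cells in every bin.

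Gzmb was present in many RKP Cpa3-gated cells and absent from the counts of the EKP ones. In RKP, 416 of 924 (45.0%, 95% interval 41.8 to 48.3%) held a count, up to 32 in 1 cell. In EKP, 0 of 83 did, at the lower median depth of 53 counts; the floor of 3 counts allows a share of up to 3.61% of cells with a count, and the Clopper-Pearson 95% interval reaches 4.35%. As a reference for background, Gzmb was counted in 1.65% of the RKP Epcam reference cells, at a median of 241 counts, and in 33.6% of RKP cells with 2 or more Cd3e counts, at 140. The share in RKP gated cells, at 142 counts, lay far above the first. Thinned to 40 counts, 271 of 879 RKP gated cells (30.8%) and 1.04% of 20000 other RKP cells still held Gzmb, and 0 of 53 EKP gated cells did.

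T cell genes did not come with Gzmb in these cells. Among RKP Cpa3-gated cells with 5 or more Gzmb counts, 3.12% of 192 held Cd3e and 2.08% held Prf1, the gene for the pore-forming protein perforin. Among the 653 other RKP cells with 5 or more Gzmb counts, 80.4% held Cd3e and 32.5% held Prf1, at a similar median depth (163 against 153 counts). Gated cells without Gzmb held Cd3e in 2.56% of 508. On the T and NK cell list, Gzmb and Lag3 were 2-fold or more higher in RKP gated cells, while Cd3e stood at 236 against 467 CPM and Cd8a at 135 against 286. Of the 653 other cells, 86 had no count of Cd3e, Cd3d or Cd8a, and 45.3% of those 86 held a Cpa3 count below the gate and 32.6% a Cyp11a1 count, against 3.17% and 1.41% of the remaining 567.

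Within RKP, the Cpa3-gated cells with and without Gzmb differed in more than this gene, a split made after the values were seen. Muc13 was counted in 24.5% of the 416 cells with Gzmb and 7.87% of the 508 without, and Scin in 45.4% and 13.8%, at median depths of 151.5 and 130.5 counts. By level, Muc13 was 3.09-fold and Scin 3.19-fold higher in the cells with Gzmb. Among genes chosen after their values were seen, these stood higher as well: Tff2, a trefoil peptide of gastric mucus, 18.2-fold (on 50 against 3 counts), Sftpd, surfactant protein D, 5.05-fold, Ambp 4.86-fold, Agr2, a chaperone of mucus-secreting cells, 3.74-fold, and the protease Ctse 2.66-fold. Other secreted proteins went the opposite way: Hp, haptoglobin, stood 5.66-fold lower in the cells with Gzmb and the complement gene C3 3.04-fold lower. Dpt, Lum and F13a1 stood 9.72-fold, 2.97-fold and 2.78-fold lower. The fibroblast gene Pi16 did not follow them, at 902 CPM with Gzmb and 813 without. Ctla2a was alike, at 17143 and 16911 CPM. Cyp11a1 lay close only with all cells with Gzmb pooled, at 11757 and 10500 CPM. It stood at 7258 CPM at 1 to 4 Gzmb counts and at 16997 at 5 or more. The mean Cpa3 count was 6.56, 5.95 and 10.2 at 0, 1 to 4 and 5 or more Gzmb counts. Epcam was counted in 57.5% of the cells with Gzmb and 37.2% of those without. The part of epithelial cells in these values was not tested. Among the 496 RKP gated cells with no Epcam count, Gzmb stood at 15093 CPM, Muc13 at 976 and Cyp11a1 at 12107.

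**Figure D4:**
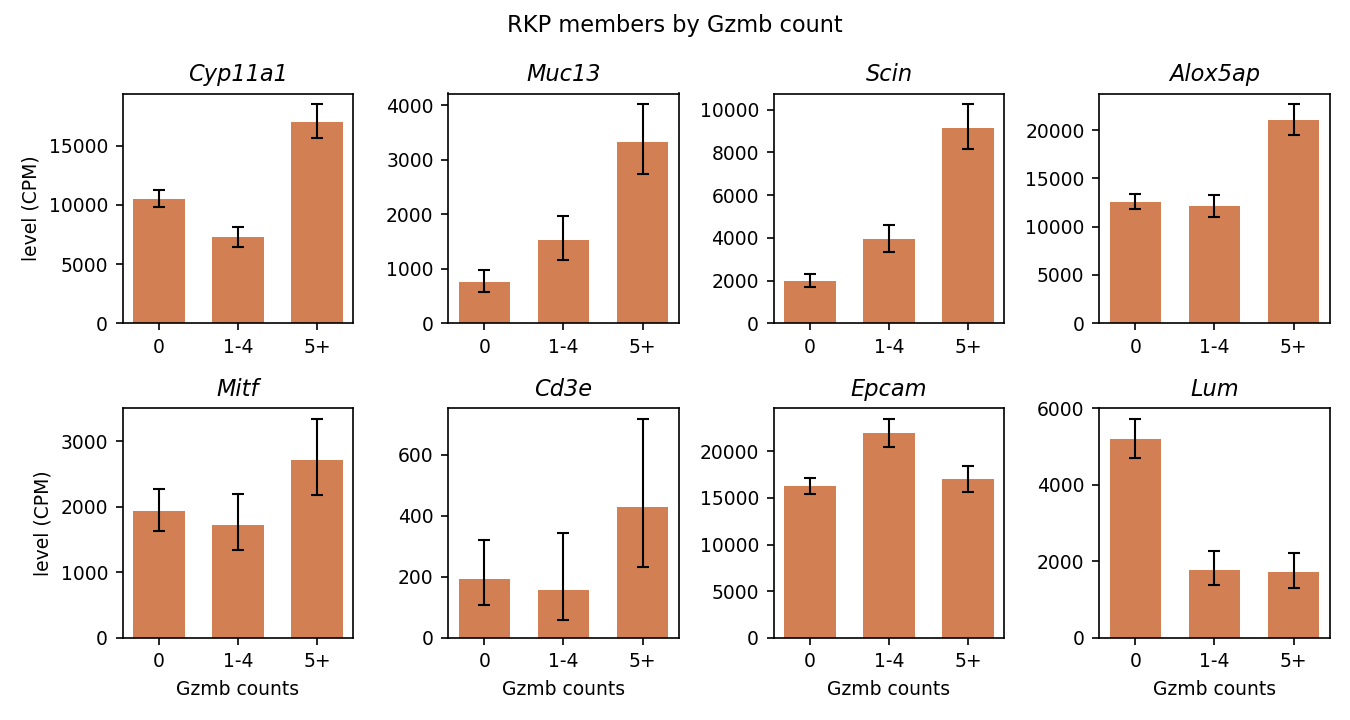
Levels of 8 genes (vertical axes, CPM without Cpa3, each from 0) in the RKP Cpa3-gated cells with 0 (508 cells), 1 to 4 (224 cells) and 5 or more (192 cells) Gzmb counts, with exact Poisson 95% intervals as bars. Muc13 and Scin climb with Gzmb, Lum stands lower in both classes with Gzmb, and Cd3e stands at 427 CPM or less in all 3. Cyp11a1 stands lowest at 1 to 4 Gzmb counts and highest at 5 or more.

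Unlike those of EKP, the RKP Cpa3-gated cells carried epithelial transcripts at close to the level of the other cells. Epcam stood at 17884 against 24792 CPM, a ratio of 0.721 (95% interval 0.694 to 0.749), and Krt8 at 25226 against 24732 CPM. Of the 6 epithelial genes, 1 (Cldn4) stood at 0.5-fold or less, and the list summed to 70370 against 92341 CPM. The transcription factor gene Sox2 was 2.28-fold (95% interval 2.17 to 2.39) higher and the growth factor gene Bmp2 2.60-fold (95% interval 2.36 to 2.85) higher. Of the proliferation genes, Mki67 stood 2.07-fold, Top2a 1.98-fold and Stmn1 1.41-fold higher, with 1 of the 3 past 2-fold. The 6 fibroblast genes summed to 28924 against 39883 CPM, with Pi16 alone past 2-fold (2.42-fold), and the 11 macrophage genes to 36650 against 48953.

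**Figure D5:**
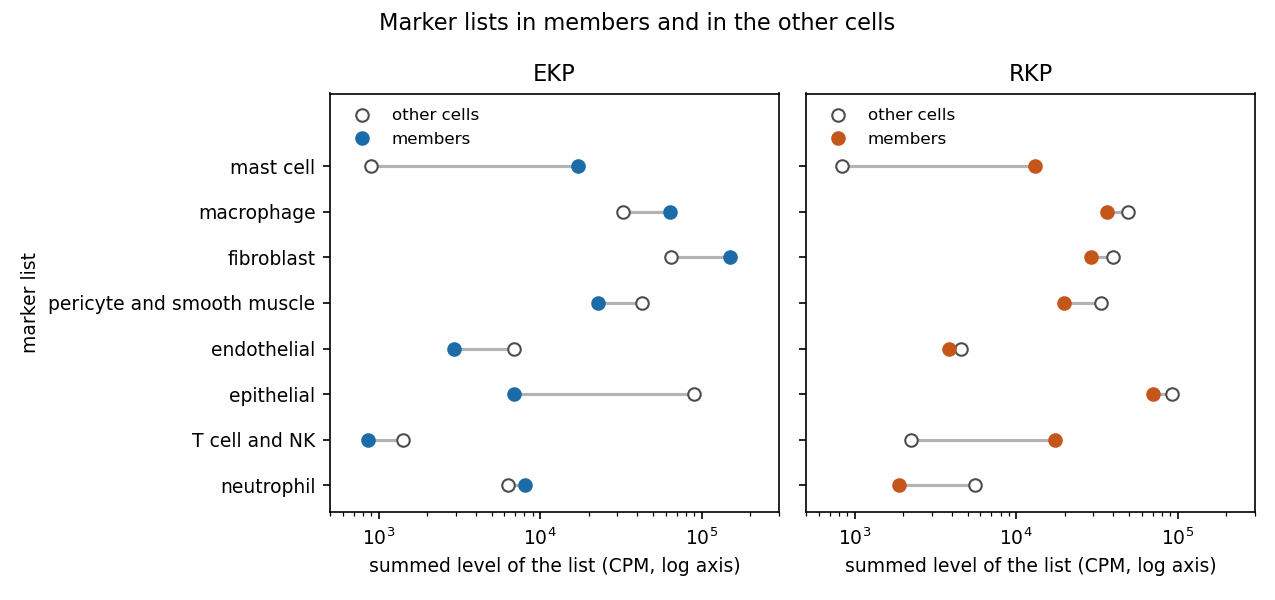
Summed level of 8 marker lists (horizontal log axis, CPM without Cpa3) in Cpa3-gated cells (filled) and all other cells (open), EKP left and RKP right; the mast cell list is Cyp11a1 and Mitf. In EKP the fibroblast and macrophage lists are higher and the epithelial list lower in the gated cells, while in RKP these 3 lie near the other cells and the T and NK cell list is higher, led by Gzmb.

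Some genes were low in the Cpa3-gated cells of both sections. Those at 0.5-fold or less in both were the cartilage proteoglycan Acan (15.2-fold lower in EKP, 2.85-fold in RKP), the tight junction gene Cldn4 (29.9-fold and 2.71-fold), the endothelial receptor Eng (3.17-fold and 2.39-fold) and the smooth muscle gene Tagln (2.16-fold and 2.60-fold). The EKP values rest on 5, 2, 7 and 33 counts. Below 1 in both sections, but not at 0.5-fold in both, were Mmp9, Timp3, Ccn2, Gng11, S100a14, Acta2, Aspn and Thbs1. On the other side, Psmb8, Egfr, Pmp22, Dpt, Folr2, Mki67 and Epsti1 stood above 1 in both, with the ratio nearest 1 between 1.24 (Epsti1 in RKP) and 1.71 (Folr2 in RKP).

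Between the sections, a gene was kept when it had 20 or more counts in the EKP gated cells, or would have had them there at its rate in the RKP ones. A gene kept only through the section where it is high had to differ, which adds to both counts. Of the 114 kept genes, 45 (39.5%) were 2-fold or more higher in the RKP gated cells and 32 (28.1%) in the EKP ones, again by size and with 1 section each. In counts per cell, which moved the median log2 ratio from 0.33 to 1.53, these were 67 and 18. Epcam was 51.8-fold (95% interval 14.3 to 428) higher in RKP gated cells, while in the other cells of the sections it differed 1.12-fold. The tetraspanin Tspan8 was 60.4-fold, the growth factor Areg 40.1-fold and the mucin Muc1 34.2-fold higher, each on 1 count in EKP, with lower interval bounds of 10.8, 7.18 and 6.12. Gzmb and Prom1, which had 0 counts in EKP and were set at 3 counts there, were at least 31.1-fold and at least 22.0-fold higher in RKP. In the other cells these 2 genes were 1.67-fold and 3.82-fold higher in RKP. Epcam, Tspan8, Areg, Muc1, Gzmb and Prom1 were all kept only through their rate in the RKP gated cells. The 6 epithelial genes on the panel summed to 6906 CPM in EKP gated cells and 70370 in RKP ones.

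In the opposite direction, Sfrp1 was 28.6-fold (95% interval 21.7 to 37.7) higher in the EKP gated cells, against 2.86-fold in the other cells. Chl1, Cd209a, Dpt, Serpina3n, F13a1, Mfap5 and Csf3r followed, from 19.1-fold to 9.52-fold, against 1.12-fold to 3.30-fold in the other cells. Sfrp1 and all of these genes were kept only through their counts in the EKP gated cells, so they had to stand higher there. The 6 fibroblast genes on the panel summed to 149689 CPM in EKP gated cells and 28924 in RKP ones. The gated cells of the sections lay close in Cyp11a1, Alox5ap, Laptm5 and Ctla2a. Restricting the gated cells to those with no Epcam count changed the sign for Cldn4 and S100a14, to log2 RKP over EKP ratios of -0.59 and -0.18. It left Prom1, at 0 counts in EKP, with no direction. The EKP value of Cldn4 rests on the few counts given above, so its change of sign carries little weight.

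The Cpa3-gated cells were spread unevenly over the order of cells in each file, whose relation to place in the tissue was not checked. Over 10 blocks of the RKP file with equal numbers of barcodes they numbered 19 to 224, or 7.72 to 88.7 per 10000 cells, and over 10 blocks of the EKP file 0 to 35, or 0 to 14.3 per 10000. The share of RKP gated cells with Gzmb ran from 14.7% of 34 cells in block 1 to 62.5% of 224 in block 8. Gzmb was counted in some gated cells of all 10 RKP blocks and in none of the EKP ones.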

How the data were processed

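Per the labels' protocols, tumours were embedded in paraffin and processed for Xenium In Situ with a panel of 379 genes plus 100 added ones. For each section the authors deposited raw counts of transcripts per gene and cell, with no normalization. Seurat 4.4.0 appears in the submitters' processing notes with no role; the sources used here give neither segmentation nor cell positions, and doublets were not called. Cells, lists and comparisons were chosen with earlier results of these data known. Counts were summed over gated and other cells and scaled to 1000000 gene counts without Cpa3; ratios carry exact conditional binomial, levels exact Poisson and shares Clopper-Pearson 95% intervals (scipy 1.17.1), and a sum of 0 took a floor of 3 counts. The text names the 12 genes furthest above and the 12 furthest below the other cells in both sections by the ratio nearest 1, the 8 furthest apart in each direction between sections, the mast cell, eicosanoid, steroid and type 2 genes, and up to 5 genes per other list; all others, and every split by Gzmb, were chosen after their values were seen. Reference cells were set by single genes. The steps were tested on simulated data. Alternatives were other gates, depth limits, filters and scalings, cells without Epcam and, chosen after seeing the data, cells without Gzmb.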

Additional observations from a re-analysis of the deposited data

Results flagged for a closer look

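Of the 103 genes kept in both sections, 3 crossed 2-fold in opposite directions, and this difference was not tested, since each section is single. Ccdc80, a secreted matrix protein, stood at 2.04 times the level of other cells in the EKP Cpa3-gated cells and at 0.476 times in the RKP ones. Csf3r, the receptor for granulocyte colony-stimulating factor, stood at 2.02 times in EKP and 0.238 times in RKP. The transcription factor gene Sox2 stood at 0.138 times in EKP and 2.28 times in RKP. The EKP values of Csf3r and Sox2 rest on 26 and 4 counts. With every cell alike, in counts per cell and at matched depth, Csf3r fell below the level of the other EKP cells. Outside the cells compared, 9 EKP and 13 RKP cells with fewer than 20 gene counts held 3 or more Cpa3 counts.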

How the results depend on the processing

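With Cpa3 of 2 or more, the share of gated cells was 0.107% in EKP and 0.583% in RKP (ratio 5.42), and with 5 or more, 0.0188% and 0.218% (ratio 11.6). The ratio was 10.97 for cells of 40 or more counts. Without the block of each file with the most gated cells the shares were 0.0287% and 0.314% (ratio 10.9). In cells thinned to 40 counts with 1 or more Cpa3 counts, they were 0.388% and 0.704% (ratio 1.82). The ratio of Cyp11a1 over other cells was 38.1 in EKP and 89.5 in RKP with Cpa3 of 2 or more, 216 and 164 with 5 or more, 218 and 79.1 in cells with no Epcam, and 41.6 and 106 in counts per cell. In RKP it was 130 without that block, 98.5 with every cell weighted alike and 90.3 at matched depth. Every setting that gave a ratio of Cyp11a1 kept it above 2-fold; none was computed without a filter or with 100 counts in place of 20, which the 84 EKP counts of Cyp11a1 do not reach.

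Counts of genes moved more. The number of genes kept moved too, and is given with each count. With Cpa3 of 2 or more, 40 of 178 genes were lower in EKP, and 62 of 187 higher in EKP between sections. With 5 or more, 13 of 36 were higher and 14 lower in EKP. Between sections, 11 of 34 were then higher in RKP and 9 in EKP. Without that block, 28 of 73 were higher in RKP between sections. In cells with no Epcam, 10 of 91 were higher in EKP and 13 of 239 in RKP. In counts per cell, 9 of 103 were higher and 56 lower in EKP, and 18 of 114 were higher in EKP between sections. At matched depth, 20 of 100 were higher in EKP. Without a filter, 114 of 298 were higher and 62 lower in EKP, and 77 of 429 higher in RKP. Between sections, 117 of 285 were then higher in EKP. With 100 counts in place of 20, 8 of 19 were higher and 5 lower in EKP, and 31 of 202 lower in RKP. Between sections, 5 of 17 were then higher in RKP and 8 in EKP. In cells with no Gzmb, 36 of 256 were lower in RKP.

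Of 1031 values of single genes under an alternative, 701 stayed within their interval, 321 moved and 9 changed sign, Prom1 among them. The log2 ratio of Tagln in RKP over EKP was 0.29 with Cpa3 of 5 or more and 0.13 in counts per cell. In cells with no Epcam, it was -0.59 for Cldn4, on few EKP counts, and -0.18 for S100a14. For Prom1 it was -0.22 against the floor of 3 counts, since EKP had 0, and gives no direction. Over other EKP cells, the log2 ratio of Csf3r was -0.020 with every cell alike, -0.20 in counts per cell and -0.40 at matched depth, and that of Laptm5 was -0.10 in counts per cell. The cause was not tested. The 5792 counts of the EKP gated cells limit every EKP value. No paired analysis was possible because each line has 1 section and no test was run.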
